A study of Callithrix jacchus with 20 samples.

Results

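Levels of 6 genes tied to naive pluripotency, KLF4, KLF5, KLF17, TFCP2L1, ESRRB and DPPA3, were examined in cloned and fertilization-derived stem cell lines of the common marmoset and in the embryoid bodies (EBs) grown from them. The 6 genes, of 21181 listed at both stages, were chosen by name, with no threshold, when their TPM values in all 20 libraries were already known. Their levels and differences are therefore given as a description, with no test. TPM scales reads by gene length and library size, so that values sum to the same total in every library.

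Undifferentiated cultures fell into 3 groups of lines and a fibroblast culture. Control ESC lines were wild-type and came from fertilized embryos (IVF #15 and #17, naturally fertilized, NAT, #13 and #37). The ntESC WT lines (#30, #53 and #61) and ntESC GFP lines (#24, #50, #54 and #55) came from embryos made by somatic cell nuclear transfer (SCNT) with skin fibroblasts of wild-type or CAG-EGFP transgenic (GFP) animals. These SCNT embryos received mouse Kdm4d mRNA, the histone deacetylase inhibitor TSA and the G9a inhibitor RK-701, which control embryos did not. A single library of wild-type donor fibroblasts stood beside them, with no replicate. Control lines #13, #17 and #37 (control EB), WT lines #30, #53 and #61 (ntEB WT) and GFP lines #24 and #50 (ntEB GFP) were also profiled after 30 days of EB culture. Every line gave 1 library per stage, so a replicate is a line and 1 line is 1 derivation. The labels do not say whether lines of a group share a donor animal. Control lines were used between passages 7 and 21 and ntESC lines between passages 5 and 10, and line #54 was reported to carry a translocation at a later passage.

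Pluripotent cells of the early epiblast are called naive, and those of the later epiblast, like cultured primate ESC lines, primed. In mouse ESCs, LIF-STAT3 signalling and inhibition of GSK3 sustain naive factors including TFCP2L1, ESRRB and the Krüppel-like factors. KLF17 marks the naive state of human cells, in which ESRRB is low, and DPPA3 is not a transcription factor but a maternal protein that limits DNA methylation in mouse eggs and embryos. KLF4 and KLF5 also serve in surface epithelia, and TFCP2L1 in kidney and other epithelia, so their presence in differentiated cultures is not particular to pluripotency.

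All 6 genes were detected in each of the 11 undifferentiated lines, at very unequal levels. By group mean, DPPA3 was the highest of the 6 and ESRRB the lowest, except that KLF17 was lowest in ntESC WT. The core factors POU5F1, NANOG and SOX2 were present in every line, and POU5F1 ranged from 1176 to 3691 TPM. In the fibroblast library KLF17, TFCP2L1, ESRRB and DPPA3 were listed at 0, whereas KLF4 was at 93.1 TPM and KLF5 at 14.3 TPM. Bulk libraries cannot tell fewer cells with a transcript from less of it per cell.

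**Figure D1:**
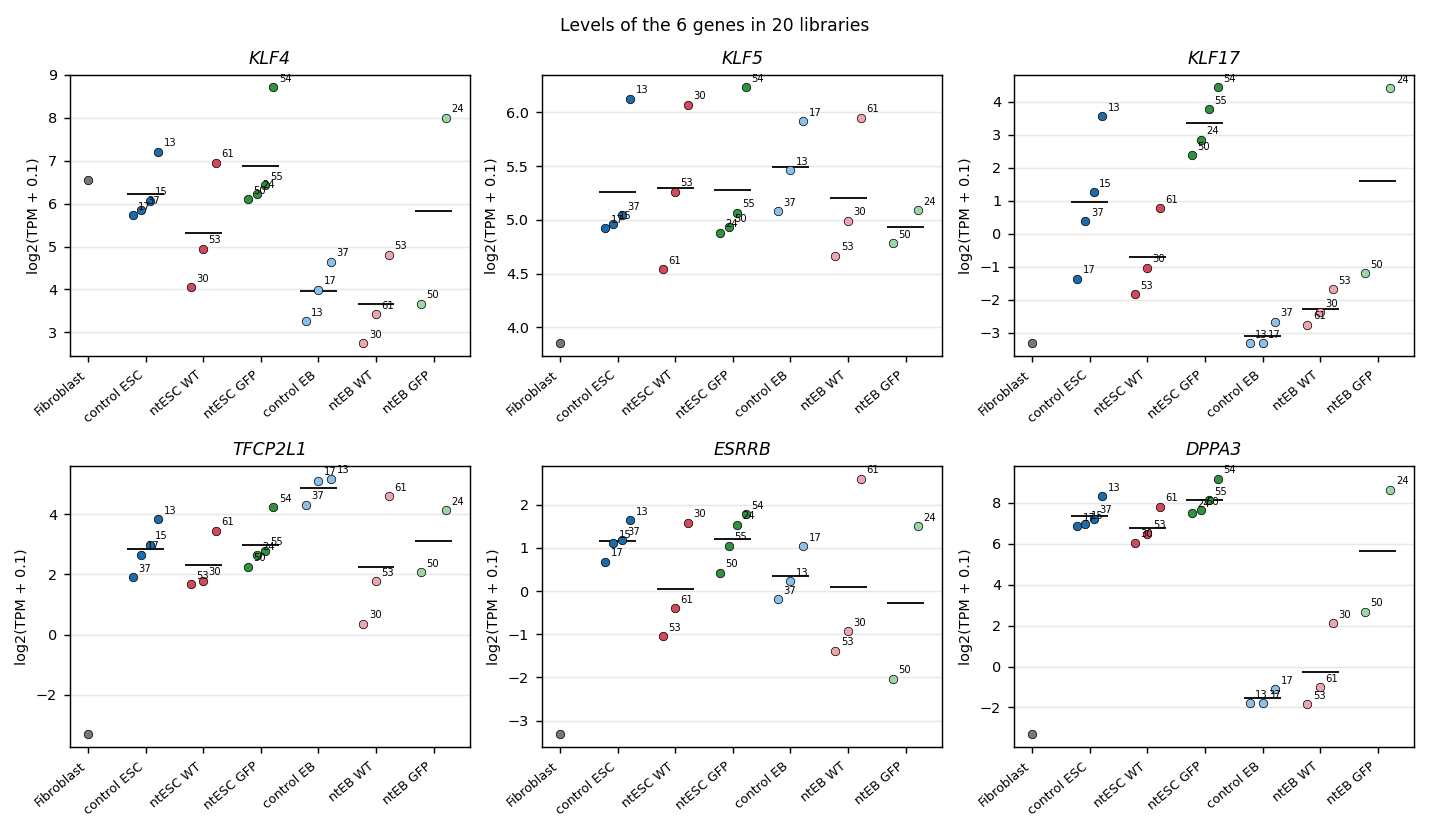
Levels of the 6 genes as log2(TPM + 0.1) in the 20 libraries, 1 panel per gene, 1 point per library labelled with its line number, and the group mean as a line. DPPA3 in control EBs lies between 0.190 and 0.366 TPM, below all 11 undifferentiated lines, and ntEB GFP #24 lies at 399 TPM.

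KLF4, a Krüppel-like factor used in reprogramming, was at 67.1, 53.2, 58.1 and 148 TPM in control ESC #15, #17, #37 and #13. It was at 16.5, 30.8 and 124 TPM in ntESC WT #30, #53 and #61. In ntESC GFP #24, #50, #54 and #55 it was at 75.0, 68.4, 419 and 85.9 TPM. Lines #13 and #54 were high and WT #30 and #53 low, so the group means (81.6 ± 44.6, 57.2 ± 58.5 and 162 ± 171 TPM; SD, n = 4, 3 and 4) overlapped in their spread. The log2 difference from control ESC was -0.90 (SE 0.75) in ntESC WT and 0.65 (SE 0.69) in ntESC GFP. Single lines moved both values. The first was -0.27 without WT #30, -0.57 without control #13 and -1.72 without WT #61, and the second 0.03 without GFP #54 and 0.98 without control #13.

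KLF5, its relative with roles in trophoblast and gut epithelium, was the steadiest of the 6. It was at 31.0, 30.2, 32.9 and 69.8 TPM in control ESC #15, #17, #37 and #13. In ntESC WT #30, #53 and #61 it was at 67.2, 38.3 and 23.2 TPM. It was at 29.3, 30.4, 75.0 and 33.4 TPM in ntESC GFP #24, #50, #54 and #55. Lines #13 and #54 were again high, but here WT #30 joined them and WT #61 was the lowest, the reverse of their order for KLF4. The group means (41.0 ± 19.2, 42.9 ± 22.3 and 42.1 ± 22.1 TPM; SD, n = 4, 3 and 4) did not separate, with log2 differences of 0.03 (SE 0.43) for ntESC WT and 0.01 (SE 0.40) for ntESC GFP, which ranged from -0.36 to 0.40 and from -0.30 to 0.30 without 1 line.

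KLF17, a naive-state factor of the human epiblast, varied most between lines. It was at 2.28, 0.288, 1.20 and 11.8 TPM in control ESC #15, #17, #37 and #13. In ntESC WT #30, #53 and #61 it was at 0.391, 0.180 and 1.60 TPM. It was at 7.14, 5.11, 21.7 and 13.6 TPM in ntESC GFP #24, #50, #54 and #55. All 4 GFP lines lay above all 3 WT lines, a separation picked out after the values were seen and shown by 8.69% of all genes tested in that direction. The GFP lines overlapped control ESC through line #13 and the WT lines through #17 and #37, with log2 differences of -1.66 (SE 1.02) in ntESC WT and 2.41 (SE 0.94) in ntESC GFP. Leaving out 1 line at a time gave -2.43 (without control #17) to -0.78 (without control #13) for the first, with -1.09 without WT #53, and 1.63 to 3.28 for the second, without the same control lines.

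TFCP2L1, a target of LIF-STAT3 signalling in mouse ESCs, was at 7.84, 6.21, 3.65 and 14.1 TPM in control ESC #15, #17, #37 and #13. It was at 3.36, 3.08 and 10.8 TPM in ntESC WT #30, #53 and #61. In ntESC GFP #24, #50, #54 and #55 it was at 6.13, 4.66, 18.8 and 6.80 TPM. The groups overlapped, with log2 differences of -0.54 (SE 0.59) and 0.13 (SE 0.55). Without 1 line these ranged from -1.12 (WT #61) to -0.21 (control #13) and from -0.29 (GFP #54) to 0.46 (control #13). ESRRB, an orphan nuclear receptor downstream of GSK3 inhibition in mouse ESCs, was low throughout, at 2.07, 1.51, 2.16 and 3.04 TPM in the control ESC lines in the same order. It was at 2.91, 0.383 and 0.660 TPM in the WT lines, and at 2.80, 1.25, 3.33 and 1.97 TPM in the GFP lines. WT #53 and #61 were the only lines under 1 TPM, and the log2 differences were -1.11 (SE 0.57; -1.88 without WT #30 and -0.56 without WT #53) and 0.04 (SE 0.53; -0.15 to 0.30 without 1 line).

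DPPA3 was at 125, 116, 149 and 321 TPM in control ESC #15, #17, #37 and #13. It was at 66.3, 89.8 and 226 TPM in ntESC WT #30, #53 and #61. In ntESC GFP #24, #50, #54 and #55 it was at 185, 198, 583 and 281 TPM. The order of group means was ntESC GFP (312 ± 186 TPM), control ESC (178 ± 96.5 TPM) and ntESC WT (127 ± 86.0 TPM; SD, n = 4, 4 and 3), and each overlapped the next, with log2 differences from control ESC of 0.78 (SE 0.47) and -0.56 (SE 0.51). The first was 0.42 without GFP #54 and 1.11 without control #13. The second ranged from -1.07 without WT #61 to -0.19 without WT #30.

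Across the 2 comparisons with control ESC, 0 of the 6 genes had groups of lines that did not overlap. Among all genes tested this held for 13.1% with ntESC WT and 11.6% with ntESC GFP, in either direction. Few genes of any kind passed limma with Benjamini-Hochberg adjustment at 0.05. They were 15 of 16118 (0.0931%) in ntESC WT and 71 (0.441%) in ntESC GFP, with 3103 and 2229 genes at an unadjusted p under 0.05. Without ntESC WT #61 the first count was 2900, and without #30 it was 25. The second was 55 without GFP #24 and 19 to 38 without any other 1 line.

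Line-to-line spread was wide for all 6 genes. Pooled within groups, the SD of log2(TPM + 0.1) over undifferentiated lines was 1.53 for KLF17, 1.14 for KLF4, 0.88 for TFCP2L1, 0.81 for ESRRB, 0.77 for DPPA3 and 0.65 for KLF5. The median over all genes was 0.31, and between 79.5% (KLF5) and 96.8% (KLF17) of genes had a lower SD than a given member. Among the core factors NANOG and SOX2 spread as widely (SD 0.73 each, with 83.2% and 82.8% of genes lower), while POU5F1 lay near the middle (0.33), so a wide spread was not particular to the 6 genes. From lowest to highest line, KLF17 spanned 120-fold, KLF4 25.3-fold, DPPA3 8.80-fold, ESRRB 8.69-fold, TFCP2L1 6.11-fold and KLF5 3.24-fold.

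**Figure D2:**
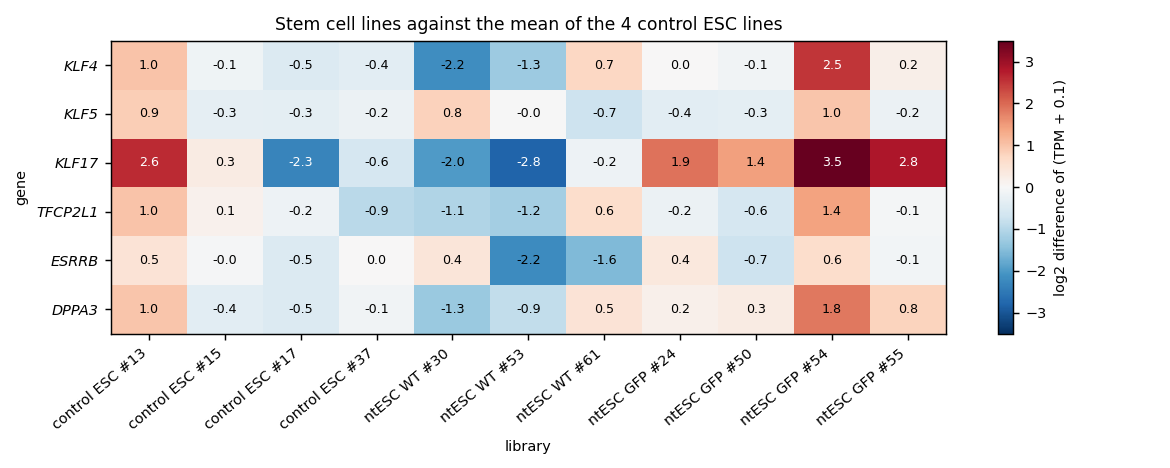
The 6 genes (rows) in the 11 undifferentiated lines (columns) as the log2 difference of (TPM + 0.1) from the mean of the 4 control ESC lines, with the value in each cell. Line #54 is positive for all 6 genes, up to 3.49 for KLF17, and so is control line #13.

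Individual lines, more than groups, set the extremes, as the map of undifferentiated lines shows. ntESC GFP #54 was the highest of the 11 lines for 6 of 6 genes, while it was the highest for 20.5% of all genes. Against the mean of the other 3 GFP lines its KLF4 was 5.48-fold, TFCP2L1 3.21-fold, DPPA3 2.64-fold, KLF17 2.51-fold, KLF5 2.42-fold and ESRRB 1.66-fold. NAT-derived control line #13 was the highest of the 4 control lines for 6 of 6, against 25.8% of all genes, and the other NAT line, #37, was not. These lines were singled out after their values were seen. At the other end, WT #53 was lowest for KLF17, TFCP2L1 and ESRRB, WT #30 for KLF4 and DPPA3, and WT #61 for KLF5.

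Other genes of the naive and preimplantation epiblast followed some of these lines. Their summed level was 6219 TPM in #54 and 3704 TPM in control #13, between 2301 and 3234 TPM in the other control and GFP lines and WT #61, and 1226 and 1465 TPM in WT #30 and #53. Line #54 was the highest of 11 for 12 of the 21 tested, including PRDM14 (591 TPM), a repressor of DNA methyltransferase genes, and the oocyte and embryo gene OOEP (2.62 TPM). It was the lowest for 2, TBX3 (9.67 TPM) and NODAL (16.2 TPM). WT #30 was the lowest for 12 of 21, where it was so for 22.1% of all genes, and the highest for TBX3 (192 TPM) and TFAP2C (201 TPM). In that line and in WT #53, summed amnion and trophoblast markers were at 1401 and 530 TPM against 64.4 to 294 TPM in the other 9 lines. Fibroblast and mesenchyme markers summed to 2075 and 1672 TPM against 407 to 904 TPM, but not all of them were high. DCN alone was at 808 TPM in WT #30. Of the 10 such markers tested, WT #30 was the highest of the 11 lines for 6 and the lowest for 2, COL1A1 (79.6 TPM) and PDGFRB (8.53 TPM). WT #30 was the highest of the 11 lines for 9 of 9 amnion and trophoblast markers tested, among them VTCN1 (130 TPM), GABRP (88.6 TPM) and the trophoblast hormone gene CGA (5.75 TPM). The part of cells with such markers in the low values was not tested.

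None of the 21 other naive genes, 16 LIF-STAT3 and Wnt pathway genes and 16 relatives of the 6 genes tested passed limma in either ntESC comparison. At an unadjusted p under 0.05 there were 4, 3 and 1 in ntESC WT and 2, 2 and 1 in ntESC GFP. For the naive list the median log2 difference was -0.77 in ntESC WT and 0.32 in ntESC GFP, against -0.0076 and -0.0035 over all genes. Closest to passing were DPPA2 and GBX2 (log2 -1.05 and -1.28, adjusted p = 0.181 and 0.224 from limma) in ntESC WT, and KLF2 and OOEP (-1.33 and 1.82, adjusted p = 0.299 and 0.341) in ntESC GFP. Without WT #61, 6 naive genes and 9 of the 22 primed genes were called lower in ntESC WT, in a fit that called 2900 genes of any kind. Of the primed and formative list, with 11 of 22 at an unadjusted p under 0.05, only THY1, a surface glycoprotein, was called lower in ntESC WT (log2 -2.49, SE 0.35, adjusted p = 0.0279 from limma; 6.35 against 36.5 TPM). That call was lost after quantile normalization, in a fit of only those 2 groups, and without any of WT #30, WT #53, control #13 or control #37.

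The 6 genes did not move as a block across the 11 lines. KLF4 and DPPA3 ranked the lines almost alike (Pearson r = 0.96, Spearman rho = 0.97 of log2(TPM + 0.1), n = 11), and both followed NANOG (r = 0.91 and 0.89). KLF17 was close to DPPA3 (r = 0.89) and TFCP2L1 to KLF4 (r = 0.91). KLF5 stood apart. Its r with KLF4 was 0.18 over all lines and -0.93 without control #13 and GFP #54, in which both were high. ESRRB had r of 0.28 with KLF4 and 0.54 with KLF5. All points share the same libraries and scaling, so these values only describe the lines.

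Among 16117 genes compared, the 3 most like KLF4 across the 11 lines were C2CD5, ZYG11A and SETDB2 (r = 0.98 each). SETDB2, related to histone H3 lysine 9 methyltransferases, and C2CD5 were also among the 3 most like DPPA3 (r = 0.98 and 0.97), with ANPEP, a surface peptidase (r = 0.97, from 20.8 to 967 TPM). KLF17 was most like OOEP (r = 0.99, rho = 0.99), then LOC100394941 and the lactate dehydrogenase subunit gene LDHB. TFCP2L1 was most like LOC100409061, ARHGEF7 and CMTR1 (r = 0.98 each). KLF5 had HIBADH, SETD3 and GABPB2 (r from 0.90 to 0.93), and ESRRB had ZBTB45, SHMT1 and LRPAP1 (r from 0.89 to 0.91). The ESRRB values rested on WT #53 and #61, without which r was 0.46 to 0.68.

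After 30 days of EB culture the 6 genes parted ways. In control EBs DPPA3, KLF17 and KLF4 lay below every control ESC line, TFCP2L1 lay above every one, and KLF5 and ESRRB overlapped. Of the 6, then, 3 were lower and 1 higher without overlap, where 41.6% and 25.5% of all genes were so. By limma 35.9% of genes were called lower and 20.7% higher in this comparison. POU5F1, NANOG and SOX2 all fell (log2 -11.52, -11.61 and -10.42; adjusted p = 4.6e-07, 7.78e-07 and 1.11e-06 from limma). Levels of both stages were set side by side as TPM, which has a limit. TPM is a share of a library total, taken over 22330 listed genes in undifferentiated cultures and 22803 in EBs. A change in the make-up of a culture therefore moves the values of other genes. The median log2 difference of all genes in control EBs was -0.28, and -0.08 after quantile normalization.

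DPPA3 was at 0.190, 0.191 and 0.366 TPM in control EB #13, #37 and #17, a log2 difference of -8.90 (SE 1.08) from control ESC. KLF17 was listed at 0, 0.056 and 0 TPM in the same EBs. KLF4 was at 9.48, 24.9 and 15.8 TPM (log2 difference -2.25, SE 0.92). All 3 control EBs thus kept KLF4 at a clear level, at 6.41% to 42.9% of the level in their own undifferentiated line, while DPPA3 was left at under 1%.

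TFCP2L1 was at 36.4, 19.9 and 34.6 TPM in control EB #13, #37 and #17, above 14.1 TPM, the highest control ESC line (log2 difference 2.03, SE 0.82). Each line had more of it as an EB than undifferentiated, at 257%, 546% and 558% of its own level. KLF5 was at 44.0, 33.7 and 60.3 TPM (log2 0.22, SE 0.42) and ESRRB at 1.07, 0.775 and 1.96 TPM (log2 -0.80, SE 0.92), both within reach of the undifferentiated lines.

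**Figure D3:**
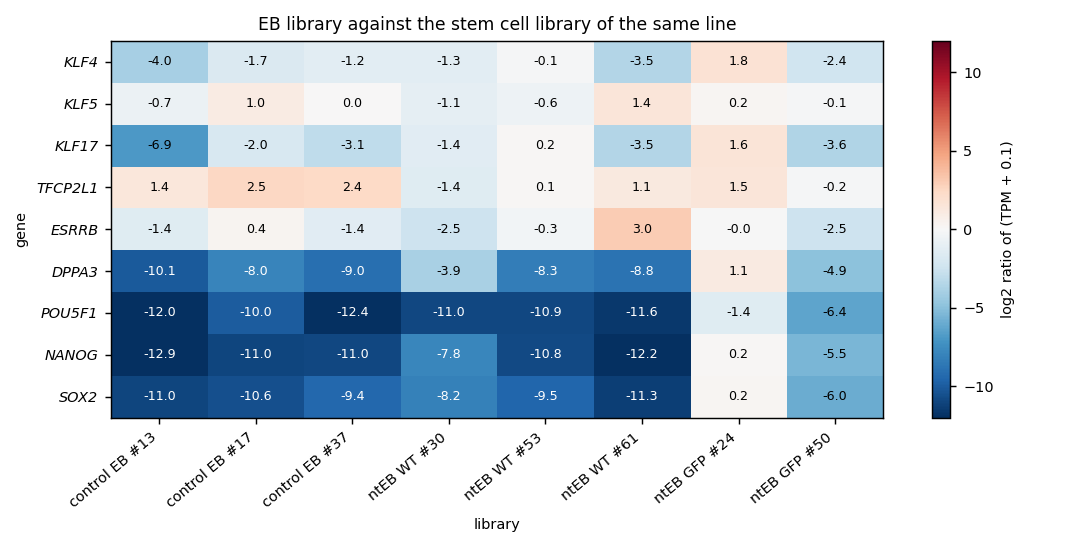
Log2 ratio of (TPM + 0.1) between the EB library and the undifferentiated library of the same line, for the 6 genes and for POU5F1, NANOG and SOX2 (rows) in the 8 lines with both stages (columns). DPPA3 has ratios from -10.11 to -3.94 in all lines except #24, where it is 1.11, and TFCP2L1 is positive in 3 of 3 control lines.

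Of the 6 genes, DPPA3 had the marked loss that all ntEB WT lines shared. KLF4 was also below its own undifferentiated level in each, at 40.1%, 90.6% and 8.54% in #30, #53 and #61. POU5F1, NANOG and SOX2 were left at 0.366% or less. DPPA3 was at 4.24, 0.178 and 0.396 TPM in ntEB WT #30, #53 and #61 (log2 difference from ntESC WT -7.03, SE 1.15), below every ntESC WT line. It was the 1 gene of the 6 without overlap, where 32.5% of all genes were lower and 13.7% higher in that way and limma called 32.1% lower and 14.3% higher. KLF4 was at 6.63, 27.9 and 10.6 TPM and KLF17 at 0.091, 0.211 and 0.047 TPM, each overlapping ntESC WT (log2 -1.66, SE 0.98, and -1.58, SE 1.24).

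TFCP2L1 split these lines, at 1.18, 3.30 and 24.2 TPM in ntEB WT #30, #53 and #61, or 35.2%, 107% and 223% of the undifferentiated level. ESRRB was at 0.425, 0.285 and 5.99 TPM, and the value in #61 was the highest of all 20 libraries. KLF5 was at 31.7, 25.3 and 61.7 TPM. For all 3 genes ntEB WT #61 was the highest WT line, within or above the range of control EBs, and as groups ntEB WT and ntESC WT lay close together (log2 -0.06, SE 0.88, for TFCP2L1, 0.05, SE 0.98, for ESRRB and -0.09, SE 0.45, for KLF5, signs that other scalings turned for TFCP2L1 and KLF5). Leaving out 1 library turned all 3 as well, from -1.24 to 0.88, -1.20 to 0.82 and -0.46 to 0.30.

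The ntEB GFP pair differed from each other in nearly every gene. In ntEB GFP #24, KLF4 was at 257 TPM, KLF17 at 21.2 TPM and DPPA3 at 399 TPM. This EB was the highest of the 8 for these 3 of the 6 genes and not for KLF5, TFCP2L1 and ESRRB. Among all genes it was the highest for 38.3%. Relative to its own undifferentiated line, KLF4 was 3.43-fold, KLF17 2.98-fold, TFCP2L1 2.85-fold (17.5 TPM) and DPPA3 2.16-fold, with KLF5 (33.9 TPM) and ESRRB (2.72 TPM) at 1.16-fold and 0.97-fold. POU5F1 remained at 1247 TPM, 37.1% of its undifferentiated level, while NANOG was at 831 TPM and SOX2 at 209 TPM, 113% and 117% of theirs. TFCP2L1 was above its undifferentiated level in the 3 control EBs and ntEB WT #53 and #61 as well, whereas KLF4, KLF17 and DPPA3 were above it in no other EB except KLF17 in ntEB WT #53.

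ntEB GFP #50 resembled the other EBs more. KLF4 was at 12.6 TPM, KLF17 at 0.337 TPM, TFCP2L1 at 4.11 TPM, ESRRB at 0.145 TPM and KLF5 at 27.5 TPM. DPPA3 was at 6.34 TPM, or 3.19% of the undifferentiated level. POU5F1 was at 25.8 TPM, NANOG at 15.0 TPM and SOX2 at 3.86 TPM. In this EB DPPA3, KLF17, POU5F1, NANOG and SOX2 all lay above the control and WT EBs.

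With lines so unlike, 0 of the 6 genes separated ntEB GFP from ntESC GFP, where 23.7% of all genes were higher and 24.0% lower without overlap and limma called 13.6% higher and 16.2% lower. The log2 difference of DPPA3 was -2.46 (SE 1.22), but -5.43 without EB #24 and 0.52 without EB #50. KLF4 went from -1.03 (SE 1.04) to -3.19 and 1.14, KLF17 from -1.75 (SE 1.31) to -4.56 and 1.05, and ESRRB from -1.46 (SE 1.04) to -3.23 and 0.30. The sign of these 4 differences therefore rested on EB #50.

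Between EB groups, ntEB WT overlapped control EB for all 6 genes, where 9.86% of all genes did not overlap. TFCP2L1 had the largest difference of the 6 (log2 -2.64, SE 1.03), which was -1.69 without ntEB WT #30 and -3.82 without ntEB WT #61. In ntEB GFP, KLF17 and DPPA3 lay above all control EBs (log2 4.72, SE 1.49, and 7.22, SE 1.74), where 23.8% of genes did, and TFCP2L1 lay below them (-1.77, SE 1.15; -0.74 without EB #50 and -2.80 without EB #24), where 14.0% did. KLF17 passed the minimum level in the EB libraries only through EB #24. Without it the mean of the other EBs was 0.106 TPM. The DPPA3 difference was 4.24 without EB #24 and 10.20 without EB #50, and KLF4 (1.87, SE 1.18, overlapping) turned to -0.29 without EB #24. Over all genes limma called 1 of 16621 (0.00602%) in ntEB WT and 2 (0.012%) in ntEB GFP against control EB, with 637 and 1573 at an unadjusted p under 0.05. The ntEB GFP count was 575 without EB #50 and 0 without EB #24.

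**Figure D4:**
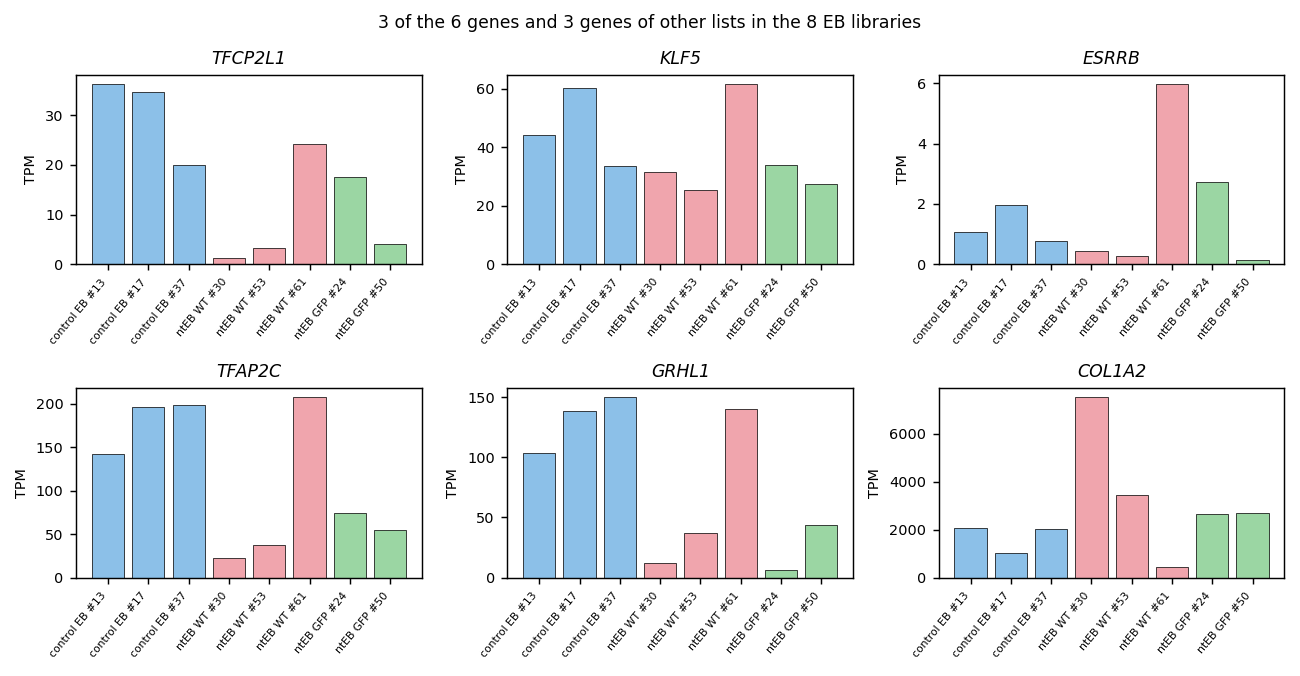
TPM of TFCP2L1, KLF5 and ESRRB and of TFAP2C, GRHL1 and COL1A2, from the related-gene and marker lists, in the 8 EB libraries (1 bar per library, no error because each line gave 1 library). ntEB WT #30 and #53 and ntEB GFP #50 are the 3 lowest for TFCP2L1, KLF5 and ESRRB, and COL1A2 is highest, at 7543 TPM, in ntEB WT #30.

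TFCP2L1, KLF5 and ESRRB shared their 3 lowest EB lines, though not the order of the others. For each, ntEB WT #30, ntEB WT #53 and ntEB GFP #50 were the 3 lowest of the 8, a set noticed in the values and shared by 12.3% of all genes. KLF4, KLF17 and DPPA3, the rest of the 6 genes, did not have this set. Across the 8 EBs KLF5 had r of 0.82 with ESRRB and 0.73 with TFCP2L1, as a description. Between TFCP2L1 and ESRRB r was 0.71 and rho 0.62. The surface ectoderm and trophoblast factor gene TFAP2C, chosen after its values were seen, was at 142 to 208 TPM in control EBs and ntEB WT #61 and at 22.5 to 74.3 TPM in the other 4.

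Epithelial markers moved with these genes in part, and the order of lines depended on the list and on how it was summarised. The summed level of 10 stratified epithelium markers was 306 to 424 TPM in control EBs and 580 TPM in ntEB WT #61. It was 36.0 TPM in ntEB WT #30, 210 TPM in #53, 44.3 TPM in ntEB GFP #24 and 250 TPM in #50. The gene SPRR3 made up most of the sum where it was high (345 of 395 TPM in control EB #13 and 490 of 580 TPM in ntEB WT #61). By the mean of log2(TPM + 0.1) over the 10 genes the order was another: ntEB GFP #50 (2.50) lay above control EB #13 and #17 and ntEB WT #61 (1.77 to 1.90), below control EB #37 (2.86) alone. Of the 8 markers tested, control EB #37 and ntEB WT #61 were the highest of the EBs for 3 each and ntEB GFP #50 for 2. TP63 was at 4.23 to 11.7 TPM in control EBs and ntEB WT #61 and at 0.250 to 2.25 TPM in the other 4. KRT14 and DSG3 were instead highest in ntEB GFP #50 (5.87 and 9.83 TPM), against 0.147 to 1.33 and 0.266 to 3.23 TPM elsewhere. KRT5 stayed under 1 TPM in all EBs. Summed endoderm and gut epithelium markers (12 genes) were 323 to 479 TPM in control EBs and 466 TPM in ntEB WT #61. They were 187, 197 and 290 TPM in ntEB WT #30, #53 and ntEB GFP #50, and 767.5 TPM in #24. EPCAM led this sum in every EB except ntEB WT #30, with 635 of 767.5 TPM in #24. It was at 1017 to 1809 TPM in undifferentiated lines, so it is not particular to endoderm here. By the mean of log2(TPM + 0.1), ntEB WT #61 was instead the lowest (0.83). Control EBs and ntEB WT #30 and #53 lay at 1.08 to 1.69, and ntEB GFP #50 and #24 were the highest (2.57 and 2.89). Summed amnion and trophoblast markers were 1175 to 5734 TPM in control EBs, 2371 TPM in ntEB WT #61 and 268 to 829 TPM in the other EBs, led by CGA in control EBs (454 to 4577 TPM). Fibroblast and mesenchyme markers ran the other way, from 2244 TPM in ntEB WT #61 and 6953 to 12280 TPM in control EBs to 14700 to 47190 TPM in the other 4. The part of these cell types in TFCP2L1, KLF5 and ESRRB was not tested.

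**Figure D5:**
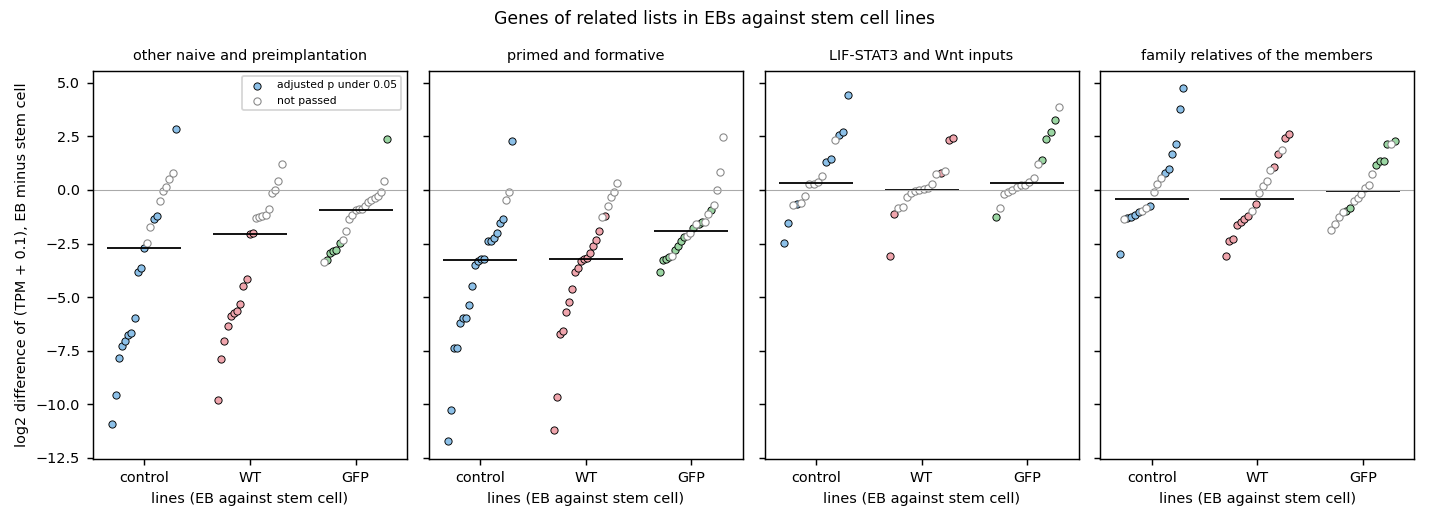
Log2 difference (EB minus undifferentiated) of each gene tested in 4 lists of related genes, for control, WT and GFP lines. Filled points passed limma at an adjusted p under 0.05, open points did not, and the line is the list median, which for other naive genes is -2.73, -2.07 and -0.92.

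The naive and primed lists around the 6 genes had more falls than rises in each comparison of EBs with undifferentiated lines. Of 21 other naive and preimplantation genes tested, 13 fell and 1 rose in control EBs (median log2 -2.73 against -0.28 over all genes) and 12 fell in ntEB WT (-2.07 against -0.33). In ntEB GFP 5 fell and 1 rose (-0.92 against -0.12). Over all genes limma called 35.9%, 32.1% and 16.2% lower and 20.7%, 14.3% and 13.6% higher in the 3 comparisons. The rise in control EBs was of DNMT3L (log2 2.86, adjusted p = 0.0301 from limma), a partner of DNA methyltransferases, and that call was lost when the line was blocked, or without control ESC #17 or #37 or control EB #17 or #37. The largest falls in control EBs were of PRDM14 (log2 -10.93, adjusted p = 3.5e-06 from limma), the small RNA-binding protein gene DPPA5 (-9.56), the orphan receptor gene NR5A2 (-7.83) and FGF4 (-7.29), a growth factor of the epiblast. In ntEB WT, PRDM14 (-9.79), the TGF-beta ligand genes NODAL (-7.90) and GDF3 (-7.05) and NLRP7 (-6.36) led. In ntEB GFP, NR5A2 fell by 3.28 and KLF2, a naive factor in mouse that endothelium also uses, rose by 2.39 (adjusted p = 0.0393 and 0.0219). Leaving out EB #24 or EB #50 leaves 1 ntEB GFP library, and the number of genes of any kind called then changed widely. Calls made without either, here and below, can therefore not be read as a trait of a list. Without any 1 ntESC GFP line 0 to 2 naive genes were called lower in ntEB GFP. With the line as a block none of the 21 was called lower in ntEB GFP.

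Primed and formative genes fell as well: 19 of 22 in control EBs (1 rose, the surface glycoprotein gene CD24), 17 in ntEB WT and 12 in ntEB GFP. The last count became 5 when the line was blocked. The NODAL co-receptor gene TDGF1 (log2 -11.71) and the zinc finger gene ZIC2 (-10.29) had the largest falls in control EBs. They led in ntEB WT too (-11.21 and -9.66), and ZIC2 (-3.82) led in ntEB GFP. The fall in EBs was therefore not confined to naive genes.

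Of the pathways that feed naive factors in mouse, the LIF receptor was higher in EBs. LIFR rose by 4.44 on the log2 scale in control EBs, 2.43 in ntEB WT and 2.37 in ntEB GFP (adjusted p = 4.81e-06, 0.0013 and 0.00545 from limma). Its partner IL6ST rose by 2.69, 2.32 and 3.28. LIFR was at 5.51 to 20.5 TPM in undifferentiated lines and at 19.4 to 214 TPM in EBs, lowest in ntEB GFP #24. PIM1, a kinase gene induced by STAT3, fell in control EBs (log2 -2.50) and ntEB WT (-3.10). Of the 16 LIF-STAT3 and Wnt genes, 5 rose and 3 fell in control EBs, 3 rose and 2 fell in ntEB WT, and 4 rose and 1 fell in ntEB GFP. Set against the shares over all genes, 20.7%, 14.3% and 13.6% higher and 35.9%, 32.1% and 16.2% lower, the rises in ntEB WT were near the background and the falls below it in all 3. The 4 rises in ntEB GFP were not called without EB #50.

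Family relatives of the 6 genes moved both ways: 6 of 18 rose and 6 fell in control EBs, 4 and 8 in ntEB WT, and 5 and 2 in ntEB GFP (2 and 1 with the line as a block). Over all genes 20.7% rose and 35.9% fell in control EBs, 14.3% and 32.1% in ntEB WT, and 13.6% and 16.2% in ntEB GFP, so the 6 falls in control EBs were near the background. Without control EB #17, 3 rose in control EBs. GRHL1, an epithelial factor of the family that holds TFCP2L1, rose in all 3 (log2 4.74, 2.40 and 2.30; adjusted p = 4.56e-05, 0.0148 and 0.0373 from limma). It was at 104 to 150 TPM in control EBs and 140 TPM in ntEB WT #61, and at 6.05 to 44.0 TPM in the others. ESRRG, a receptor related to ESRRB, also rose in all 3 (3.78, 2.60 and 2.14). KLF12 fell in control EBs and ntEB WT (-3.01 and -2.37), KLF15 in ntEB WT (-3.08), and KLF10 and KLF11 rose in ntEB GFP (1.34 each). None of the 5 rises in ntEB GFP was called without EB #50. Between EB groups no gene of the 4 lists passed limma. At an unadjusted p under 0.05 there were 2 of 20 other naive and 1 of 22 primed genes in ntEB WT against control EB, and 10 and 10 in ntEB GFP. Without EB #50, 10 naive and 8 primed genes were called higher in ntEB GFP than in control EB.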

How the data were processed

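From poly(A) RNA, the authors made stranded libraries read as 100-bp pairs, trimmed the reads with fastp 0.20.1 (minimum length and quality 20), mapped them to marmoset genome calJac4 with STAR 2.7.8a, kept reads with 1 location and at most 1 mismatch, and counted genes with featureCounts (subread 2.0.6). The deposited values are TPM, computed by the authors, whose methods leave sex chromosomes out. The 3 genes of each table that RefSeq places on a sex chromosome were dropped here. TPM keeps no depth, and no counting error could be given. Copies with near-identical sequence lose their shared reads. Which annotation and strand setting were used for counting, and the sequencer of each library, is not given in the sources used here.

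Here log2(TPM + 0.1) was fitted with limma 3.58.1 in R 4.3.3 (trended eBayes), keeping genes that averaged 0.5 TPM or more, with Benjamini-Hochberg adjustment over all genes and a threshold of 0.05. The 11 undifferentiated libraries (16118 genes), the 8 EB libraries (16621) and all 19 (16545) formed 1 fit each, so lines outside a comparison enter its SE, and p-values reflect spread among lines alone. The limma fit was tested on simulated data with independent normal noise of the pooled spread of each gene. That simulation held no outlying lines and no pairing of stages, so it cannot speak to results that rest on single lines. Other values used Python 3.11.15, numpy 2.4.6, pandas 2.3.3, scipy 1.17.1 and matplotlib 3.10.9. RefSeq names (calJac240_pri) matched all 6 genes, as protein-coding. No sequences or coordinates were used here.

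The 6 genes and the lists were chosen with earlier results of these data known. Besides the 6 genes and POU5F1, NANOG and SOX2, named genes were the up to 4 called genes of a list with the largest log2 difference, the 2 nearest to passing where none was called, and the 3 genes most like each of the 6. TFAP2C is marked in the text as an exception. Single cell type markers (such as VTCN1, TP63, KRT14 and COL1A2) and genes named because a line was highest or lowest for them (such as TBX3) were also outside this rule. They are examples picked from their lists. EBs and undifferentiated cultures of a number come from the same cell line, which pairs them. The correlation of their deviations from group means was 0.04 (#13) to 0.26 (#17). Alternatives were another pseudocount, other filters, quantile normalization, 2-group fits, the line as a block, and leaving out each library. One more, the 16 libraries of lines with both stages without a line term, was chosen after seeing the data.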

Additional observations from a re-analysis of the deposited data

Results flagged for a closer look

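Within a group of 4 lines, 1 line lay far from the other 3 in 6 cases, always as the highest. Control ESC #13 stood apart for KLF4 (148 TPM), KLF5 (69.8 TPM) and DPPA3 (321 TPM), its gap to the next line taking 85.4%, 93.2% and 83.9% of the range of the group. ntESC GFP #54 stood apart for KLF4 (419 TPM), KLF5 (75.0 TPM) and TFCP2L1 (18.8 TPM), with gaps of 95.0%, 91.1% and 84.9% of the range. A gap of over 82.9% of the range picked out these cases. The share of all genes with such a gap in these lines was not counted, so whether the cases are unusual cannot be told. How often chance alone gives such a gap in TPM values was not measured. Since the values were known when the 6 genes were chosen, the cases are a description and no test. The 6 genes were looked at in the same 2 lines, so the cases are not independent. Line #54 was the highest of 11 lines for 20.5% of all genes, and the part of its translocation in these values was not tested.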

How the results depend on the processing

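Leaving out 1 library at a time gave ranges of 11 to 2900 genes called in ntESC WT against control ESC (2900 without WT #61), 19 to 55 in ntESC GFP against control ESC, 563 to 7055 in ntEB GFP against ntESC GFP (without EB #50 and #24), 0 to 126 in ntEB WT against control EB (126 without #61) and 0 to 575 in ntEB GFP against control EB. Ranges for the ntESC groups stand beside each gene. Member differences ranged over -3.19 to 1.14 (KLF4), -4.56 to 1.05 (KLF17), -3.23 to 0.30 (ESRRB) and -5.43 to 0.52 (DPPA3) in ntEB GFP against ntESC GFP, and over -0.29 to 4.04 (KLF4), 4.61 to 7.52 (KLF17, with no value without EB #24, for lack of level) and 4.24 to 10.20 (DPPA3) in ntEB GFP against control EB. Of 269 such differences 35 changed sign. Where an arm was left with 1 library, its spread was assumed to be like that of the other groups.

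With only the 2 groups in a fit, 6 genes (ntESC WT) and 137 (ntESC GFP) were called against control ESC, 4139 in ntEB WT against ntESC WT, 2609 in ntEB GFP against ntESC GFP and 0 in ntEB WT against control EB. KLF17 could not be fitted there in the comparisons of ntEB WT, for lack of level. A pseudocount of 1 gave log2 differences of -1.70 (KLF17) and -7.04 (DPPA3) in control EBs against control ESC, 2.42 for KLF17 in ntEB GFP against control EB, and 1 gene called in that comparison. Quantile normalization called 0 genes in ntEB WT against control EB, and moved the split of calls in ntEB WT against ntESC WT from 2372 higher and 5307 lower to 3120 and 3926. It moved the median of all genes from -0.33 to -0.08 there and from -0.28 to -0.08 in control EBs, and 4 of 42 member differences, all near 0, changed sign. The line as a block (replicate block) called 2089 genes in ntEB GFP against ntESC GFP, and the same 16 libraries without a line term 1986. It called 8024 in control EBs and 6757 in ntEB WT, and turned 1 of 18 member differences, KLF5 in ntEB GFP (0.03 against -0.34). The filters changed no member difference. Causes were not tested. Depth is unknown, so low values of KLF17 and ESRRB carry a counting error that could not be given.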
